A study of Equus caballus with 15 samples.

Results

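The genes described here are 8 interferon regulatory factors of the horse: IRF1, IRF2, IRF3, IRF4, IRF5, IRF7, IRF8 and IRF9. They were taken by gene symbol alone from the 16932 protein-coding genes listed, and all 8 passed the filter on low values that left 11628 genes to test. Orthobiologic therapies (OTs) are cell or blood products injected into joints, and the study asked how they change activated equine macrophages. Polyadenylated RNA was sequenced from monocyte-derived macrophages in 5 conditions, with 3 libraries each. Blood cells of 2 horses were cultured for 5 days with 30 ng/ml of human M-CSF, which drives monocytes to become macrophages. One condition was left untreated. A second received IL-1ß alone at 10 ng/ml, an inflammatory cytokine of the diseased joint. The other 3 received the same dose of IL-1ß together with an OT at 25% of the medium, which was conditioned medium of bone marrow mesenchymal stromal cells (MSC-CM), platelet rich plasma (PRP) lysate or autologous conditioned serum (ACS). Treatment lasted 24 h. The sample descriptions place the RNA lysis directly after the wash that ended it, whereas the study design has the cells in fresh medium for a further 24 h.

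By the study's account, the 3 libraries of each OT stand for 3 donor horses, the same for all OTs and other than the macrophage donors, whereas the IL-1ß and untreated libraries are technical replicates of the macrophages. All library titles open with the same prefix, which the labels do not explain, and nothing else ties a library to one of the 2 macrophage donors. The p-values therefore measure the spread between these libraries, which may be technical in the IL-1ß and untreated conditions, and each OT compared with IL-1ß was set against the same 3 IL-1ß libraries.

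Interferon regulatory factors are transcription factors that share a DNA-binding domain and recognise interferon-stimulated response elements. IRF3, IRF5 and IRF7 wait in the cytoplasm until kinases downstream of nucleic acid sensors and Toll-like receptors phosphorylate them, after which they switch on interferon and cytokine genes. IRF9 is the DNA-binding part of ISGF3, the complex that carries the type I interferon response, IRF1 and IRF2 compete for the same sites as activator and mainly repressor, and IRF4 and IRF8 pair with PU.1 or BATF proteins to shape myeloid and lymphoid cells. Activity of IRF3, IRF5 and IRF7 is set largely after translation, so that their mRNA levels describe supply and not activity. For the other members, too, only mRNA was measured, and not protein or activity.

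Libraries held between 28410735 and 47894069 reads on genes, with a median of 37215811, so that 1 read was worth 0.0209 to 0.0352 CPM, the counts of a gene scaled to the size of its library. At its mean level a member had between 894 reads (IRF5) and 16464 reads (IRF1) in the shallowest library. On the first principal component of all tested genes, which held 55.4% of the variance, IL-1ß replicate 3 and PRP lysate replicate 1 lay at -103 and -51.7 and the other 13 libraries between -20.7 and 26.6. Each count of members past the adjusted threshold below is therefore also given without those 2 libraries where it differs. CD68, a defining macrophage marker, had condition means of 1430 to 2019 CPM, but CD14, MARCO and ITGAM stayed at or below 4.71 CPM. All 8 markers of T cells were present, at a summed level of 841 to 2020 CPM. In such bulk samples fewer cells of a type and less RNA per cell cannot be told apart.

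With PRP lysate and with ACS, 2 members passed the test together, IRF7 and IRF8, whereas no member passed with MSC-CM. IRF7, the interferon-inducible factor that amplifies type I interferon, fell 3.27-fold with PRP lysate and 2.52-fold with ACS relative to IL-1ß alone, as ratios of the mean CPM. IRF8, a lineage factor of monocytes and dendritic cells, rose 2.34-fold and 2.57-fold. IRF2, which mostly represses the targets of IRF1, fell 1.56-fold with PRP lysate. IRF3 and IRF9 passed in none of the 10 comparisons made. These comparisons were tested with limma on log2(CPM + 1) over all 11628 genes, and a gene passed at a Benjamini-Hochberg adjusted p of at most 0.05.

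Relative to IL-1ß alone, PRP lysate had 3 of 8 members past this threshold, 1 higher and 2 lower, where 4.94% of all tested genes passed. ACS had 2 of 8, 1 higher and 1 lower, against 3.45% of all genes. With the study's further rule of a 2-fold change, 2 members remained for PRP lysate (3.09% of all genes) and the same 2, IRF7 and IRF8, for ACS (2.21% of all genes). By limma, 0 of 8 members passed for IL-1ß against untreated, where 0.387% of all genes passed, and 0 of 8 for MSC-CM against IL-1ß, where 0% did. In these last 2 comparisons 4 and 1 members had an unadjusted p under 0.05, edgeR passed 0 and 0, and DESeq2 passed 1 (IRF8) and 0. Without the 2 libraries far out on the first component these unadjusted counts were 4 and 2, with 2172 and 847 of 11628 genes. Without IL-1ß replicate 3 and PRP lysate replicate 1 the same 3 members passed for PRP lysate, as did 1079 of 11628 genes. For ACS, IRF2 then joined IRF7 and IRF8, where 693 genes passed. In a fit of only the 2 groups compared, the PRP lysate count went from 3 to 0, where 56 of 11628 genes passed. At an unadjusted p under 0.05 that fit had 5 members and 922 genes. The ACS count went from 2 to 1 (IRF8), where 49 genes passed.

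**Figure D1:**
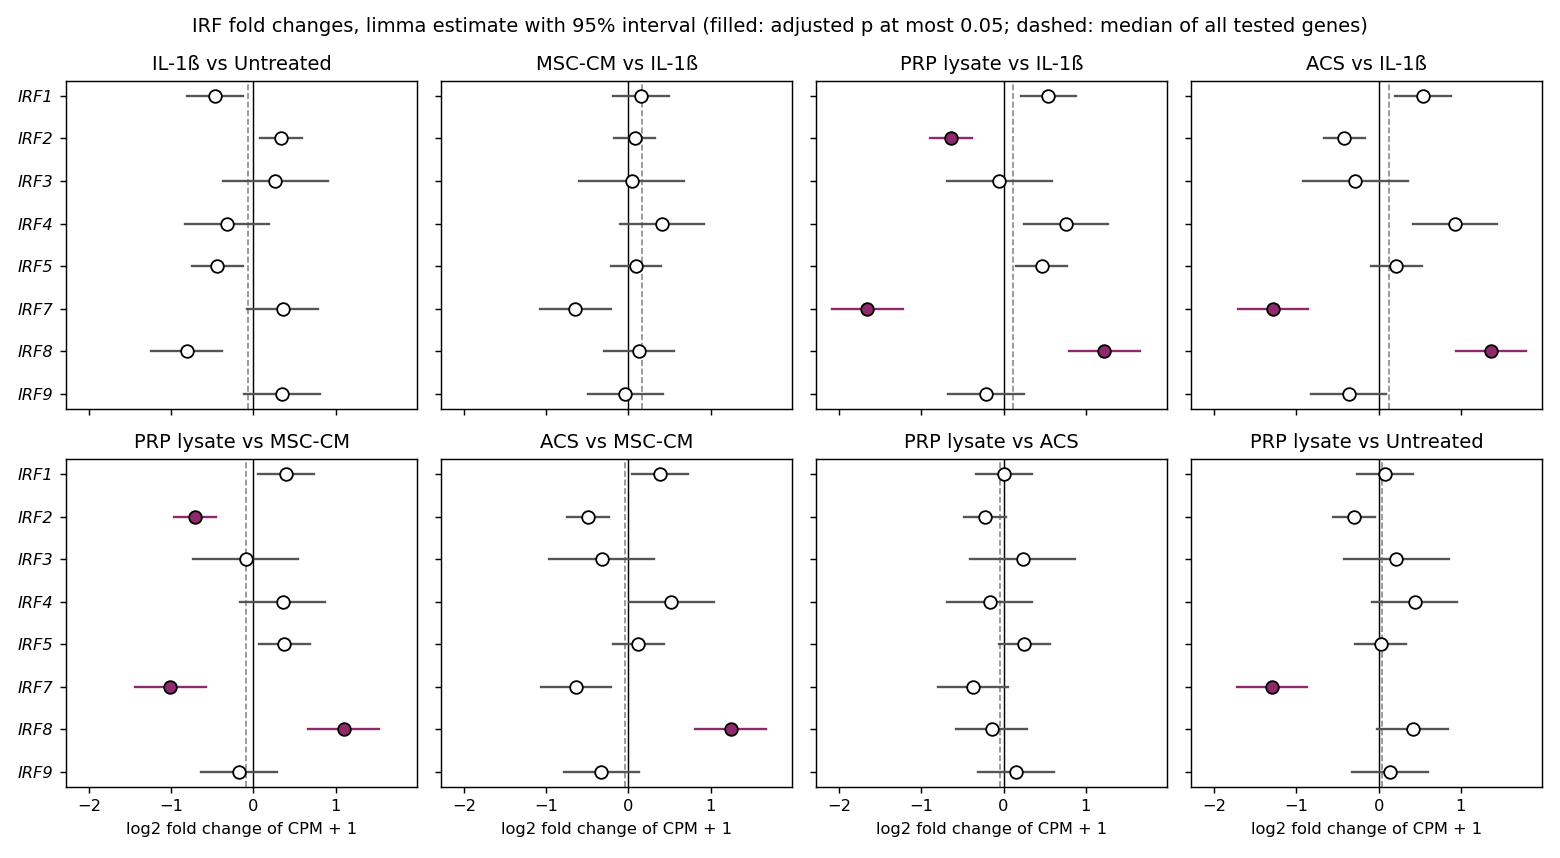
Log2 fold changes of the 8 members on the log2(CPM + 1) scale in 8 comparisons, with the limma estimate as a point and its 95% confidence interval as a line. Filled points passed, and the dashed line marks the median of all tested genes. IRF7 lies left of zero and IRF8 right of zero in the PRP lysate and ACS panels against IL-1ß, whereas all points are open for IL-1ß against untreated, MSC-CM against IL-1ß and PRP lysate against ACS.

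Non-overlap of the libraries of a condition with the IL-1ß libraries was counted over all members, passing or not. With PRP lysate 6 of 8 members did not overlap, 4 higher and 2 lower, where 15% of all genes did not, and 3 of the 6 passed the test. With ACS it was 7 of 8, 4 higher and 3 lower, against 26.2% of all genes, and 2 of the 7 passed. With MSC-CM it was IRF7 alone, against 8.79% of all genes, and in IL-1ß against untreated it was 4 of 8 members, 1 higher and 3 lower, against 16.2%. The median absolute log2 difference of the members was 0.59 for PRP lysate and 0.48 for ACS, and 0.11 for MSC-CM. Over all tested genes the median absolute difference was 0.27, 0.35 and 0.22 in the same order, above that of the members for MSC-CM. The signed median of all genes was 0.11, 0.13 and 0.16, and RLE size factors moved it by -0.09, -0.11 and -0.16.

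Among the factors activated by phosphorylation, IRF7 varied most between conditions. It was at 101, 86.0 and 81.8 CPM in the untreated libraries and at 94.98, 99.1 and 159 CPM with IL-1ß alone. With MSC-CM it was at 77.5, 66.8 and 74.8 CPM, with PRP lysate at 34.0, 31.2 and 42.8 CPM, and with ACS at 48.1, 39.8 and 52.4 CPM. All 6 libraries of PRP lysate and ACS lay below all 9 others, and IL-1ß replicate 3 was the highest of the 15. Relative to IL-1ß alone the log2 difference was -1.65 (SE 0.198, 95% interval -2.08 to -1.23; limma, adjusted p = 0.000342) for PRP lysate, which is -1.76 relative to the median gene. For ACS it was -1.28 (-1.71 to -0.86; limma, adjusted p = 0.00434), or -1.41 relative to the median gene. Because the high library belongs to the common comparator, both were computed again without it and came to -1.42 and -1.05 (limma, adjusted p = 0.000285 and 0.00579). A fit of only the 2 groups compared gave limma adjusted p = 0.0737 for PRP lysate and 0.113 for ACS, the highest of all alternatives, which ranged from 2.42e-09 for PRP lysate and from 5.98e-06 for ACS.

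IRF7 with PRP lysate was also below its untreated level, at 36.0 ± 6.07 against 89.6 ± 10.2 CPM (mean ± SD, n = 3 each), a log2 difference of -1.30 (limma, adjusted p = 0.00338), where 2.59% of all genes passed and 1.6% did so with a 2-fold change. That comparison held under all 16 alternatives. With ACS the difference from untreated was -0.93 (limma, adjusted p = 0.0699), and the groups did not overlap. With MSC-CM the difference from IL-1ß was -0.64 at an unadjusted p of 0.00629, again without overlap (limma, adjusted p = 0.705), and -0.41 without IL-1ß replicate 3. In descending order of the mean the conditions ran IL-1ß, untreated, MSC-CM, ACS and PRP lysate, and no neighbouring pair in this order passed the test.

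IRF7 lies on chromosome 12 from 35588678 to 35636446 (EquCab3.0, ENSECAG00000009744), and this annotated span also covers RASSF7 and PHRF1. The strand setting of the counting is not given in the sources used here, so that reads in shared stretches cannot be assigned with certainty. PHRF1 was at 131 ± 8.86 CPM with PRP lysate and 119.9 ± 3.74 CPM with IL-1ß, a log2 difference of 0.12, and RASSF7 differed by 0.00 (limma, adjusted p = 0.634 and 0.998). RASSF7 reached 90.9 CPM in IL-1ß replicate 3 and 102 CPM in PRP lysate replicate 1 and stayed between 28.5 and 58.6 CPM elsewhere.

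**Figure D2:**
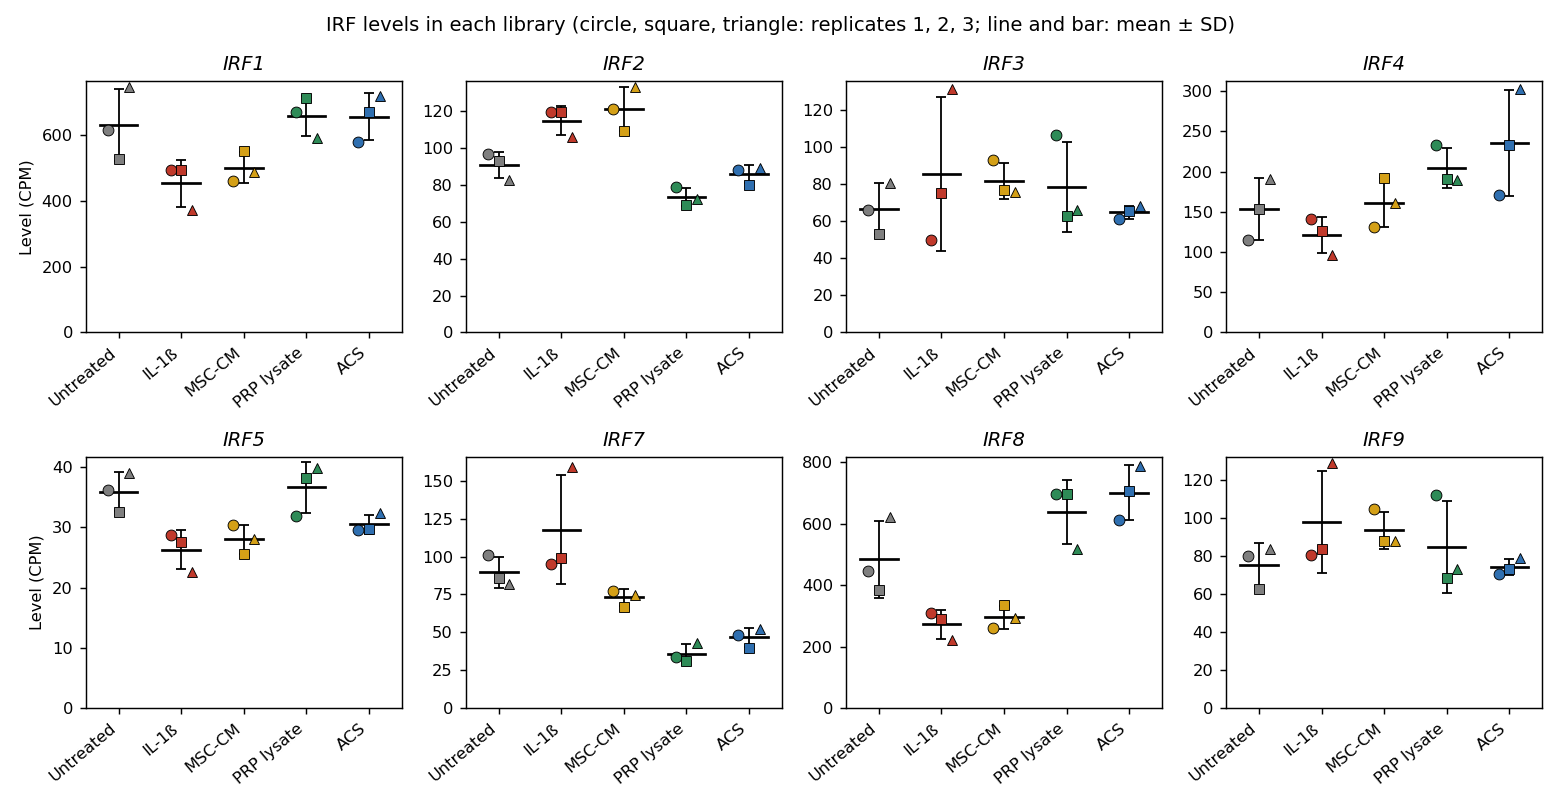
Level in CPM of the 8 members in each of the 15 libraries, 1 panel a gene, with circles, squares and triangles for replicates 1, 2 and 3 and the mean ± SD as line and bar. IRF7 is lowest in PRP lysate and ACS, where IRF8 is highest, and the triangle of IL-1ß is the highest point for IRF3, IRF7 and IRF9.

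IRF3, the constitutive sensor-activated factor that starts interferon-beta production, did not pass in any comparison. It was at 50.1, 75.4 and 131 CPM with IL-1ß alone and at 106.9, 62.8 and 66.4 CPM with PRP lysate. The highest value of each belonged to the library that lay far out on the first principal component, and the remaining 9 libraries were between 53.3 and 93.0 CPM. Condition means ran from 64.9 CPM with ACS to 85.7 CPM with IL-1ß, and no neighbours in this order differed beyond their spread. The gene lies on chromosome 10 from 19701611 to 19705708 (ENSECAG00000018265).

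IRF5, which acts downstream of MYD88 and drives inflammatory cytokine genes, was at 32.6 to 39.0 CPM in the untreated and 22.6 to 28.7 CPM in the IL-1ß libraries. These ranges did not overlap, and the log2 difference was -0.44 (limma, adjusted p = 0.219). With MSC-CM it was at 25.6 to 30.4 CPM, with PRP lysate at 31.9 to 39.8 CPM and with ACS at 29.6 to 32.3 CPM. The PRP lysate libraries were all above the IL-1ß libraries, by 0.46 on the log2 scale (limma, adjusted p = 0.0912). Its span on chromosome 4 from 83912993 to 83951789 (ENSECAG00000009902) overlaps TNPO3, which differed by 0.08 (limma, adjusted p = 0.776) in the same comparison.

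IRF9, the DNA-binding subunit of ISGF3, was at 81.0, 84.1 and 129 CPM with IL-1ß alone and at 113, 68.5 and 73.1 CPM with PRP lysate. As for IRF3, the high values were those of the 2 libraries far out on the first component. With ACS it was at 70.7, 73.2 and 78.9 CPM, below every IL-1ß library, with a log2 difference of -0.36 (limma, adjusted p = 0.302), which was -0.15 without IL-1ß replicate 3 (limma, adjusted p = 0.856). Its condition means ran from 74.3 CPM with ACS to 98.0 CPM with IL-1ß, with no passing neighbours. IRF9 is annotated on chromosome 1 from 163861351 to 163865119 (ENSECAG00000024429).

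IRF1, an activator induced by interferon-gamma and NF-kB, and its antagonist IRF2 lay in nearly opposite order over the conditions. IRF2 was at 96.6, 93.0 and 82.8 CPM in the untreated libraries and at 119, 119.5 and 106 CPM with IL-1ß alone. It was at 121, 109.6 and 133 CPM with MSC-CM, at 78.8, 69.4 and 72.3 CPM with PRP lysate and at 88.3, 80.2 and 89.5 CPM with ACS. Every library with IL-1ß alone or MSC-CM was above every other library, and every PRP lysate library was below every other one. Relative to IL-1ß alone the log2 difference was -0.64 for PRP lysate (limma, adjusted p = 0.00613) and -0.42 for ACS (limma, adjusted p = 0.0768). The PRP lysate call was lost in a fit of only those 2 groups (limma, adjusted p = 0.277, the highest of 16 alternatives, which began at 1.65e-05) and in the fit with the replicate number as a block (0.0681). IRF2 spans chromosome 27 from 25561767 to 25665099 (ENSECAG00000007508).

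IRF1 was at 615, 528 and 746 CPM in the untreated and at 494, 494 and 371 CPM in the IL-1ß libraries, which did not overlap. With PRP lysate it was at 671, 711 and 592 CPM and with ACS at 577, 671 and 719.7 CPM, above every IL-1ß library, whereas with MSC-CM it was at 461, 553 and 488 CPM. The log2 difference from IL-1ß was 0.55 for PRP lysate and 0.54 for ACS (limma, adjusted p = 0.0687 and 0.0847), and untreated cells exceeded IL-1ß by the ratio 1.39. No pair of neighbours passed in its order of PRP lysate, ACS, untreated, MSC-CM and IL-1ß. IRF1 lies on chromosome 14 from 42367750 to 42375167 (ENSECAG00000017794).

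IRF8, the partner of PU.1 in monocyte and dendritic cell development, was the member that rose. It was at 447, 383 and 623 CPM in the untreated libraries and at 308, 289 and 220.2 CPM with IL-1ß alone. It was at 259.8, 335 and 294 CPM with MSC-CM, at 697, 698 and 517 CPM with PRP lysate and at 610.5, 706 and 786 CPM with ACS. The IL-1ß and MSC-CM libraries lay below all others, and untreated overlapped PRP lysate and ACS only through its replicate 3. Relative to IL-1ß alone the log2 difference was 1.22 (SE 0.198, 95% interval 0.80 to 1.65; limma, adjusted p = 0.00271) for PRP lysate, and 1.12 relative to the median gene. For ACS it was 1.37 (0.94 to 1.80; limma, adjusted p = 0.00317), and 1.24 relative to the median gene. The PRP lysate call was lost only in the fit of those 2 groups (limma, adjusted p = 0.0904, of a range from 2.25e-06), and the ACS call passed under all 14 alternatives.

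IL-1ß alone held 272 ± 46.1 CPM of IRF8 against 484 ± 124 CPM in untreated cells (n = 3 each), without overlap and with a log2 difference of -0.81 (limma, adjusted p = 0.105). DESeq2 on the recovered reads passed it at an adjusted p of 0.0122, the lowest of 16 alternatives, which reached 0.606, and it was the only one to pass. Against untreated the difference was 0.41 for PRP lysate and 0.56 for ACS, and neither passed (limma, adjusted p = 0.418 and 0.397). In descending order the means ran ACS, PRP lysate, untreated, MSC-CM and IL-1ß, and the closest to passing among neighbours was untreated against MSC-CM (0.68, limma, adjusted p = 0.0971). IRF8 lies on chromosome 3 from 33540584 to 33582842 (ENSECAG00000015449).

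IRF4, which in macrophages is tied to alternative activation and competes with IRF5 for MYD88, was at 115, 154 and 191 CPM in the untreated libraries and at 141, 126 and 96.9 CPM with IL-1ß alone. It was at 131, 192 and 161 CPM with MSC-CM, at 233, 191 and 190.0 CPM with PRP lysate and at 171, 233 and 302 CPM with ACS. All PRP lysate and ACS libraries lay above all IL-1ß libraries, but the untreated and MSC-CM libraries overlapped both sides. The log2 difference from IL-1ß was 0.76 for PRP lysate (limma, adjusted p = 0.0955) and 0.93 for ACS (limma, adjusted p = 0.0525). The ACS difference passed under 4 of 14 alternatives, with adjusted p from 0.0111 to 0.243, and TMM factors and DESeq2 were among these. IRF4 lies on chromosome 20 from 1090100 to 1104797 (ENSECAG00000016808).

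**Figure D3:**
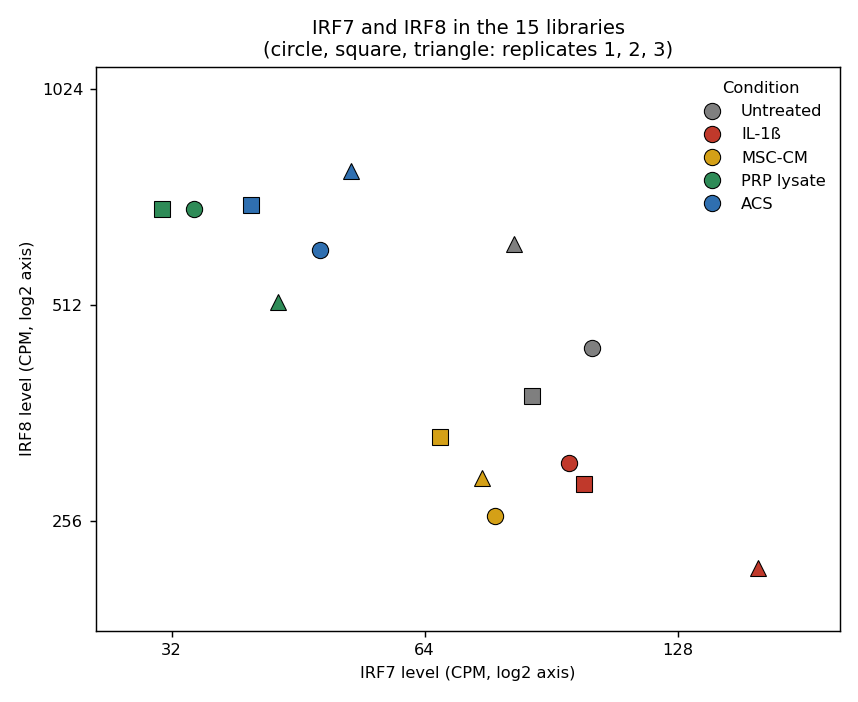
IRF8 level against IRF7 level in CPM in the 15 libraries, both axes on a log2 scale, coloured by condition. The 6 PRP lysate and ACS libraries sit at the upper left, with IRF7 at 31.2 to 52.4 CPM and IRF8 at 517 to 786 CPM, and IL-1ß replicate 3 sits alone at the lower right with 159 and 220.2 CPM.

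The OTs were also compared with each other. PRP lysate differed from MSC-CM in the same 3 members, with log2 differences of -0.71 for IRF2, -1.01 for IRF7 and 1.10 for IRF8 (limma, adjusted p = 0.00365, 0.0106 and 0.00654). That was 3 of 8 members where 4.22% of all genes passed, and 2 of 8 where 2.61% passed with a 2-fold change. Without IL-1ß replicate 3 and PRP lysate replicate 1, 4 members passed, with IRF5 added (limma, adjusted p = 0.0216, of a range over its 17 alternatives from 0.0142 to 0.534). Calls rose over all genes as well, from 491 to 1810 of 11628. Same-numbered MSC-CM and PRP lysate libraries deviated together, but so did replicate 2 of either with replicate 3 of the other, so that pairing was not shown. With the numbers as a block the same 3 members passed in a fit of these 6 libraries (limma, adjusted p = 0.0213, 0.00769 and 0.00685), an alternative chosen after seeing the data. The IRF7 call was the least stable of the 3. It was lost with RLE size factors, with edgeR, without MSC-CM replicate 3 and without PRP lysate replicate 2, at adjusted p up to 0.0552 in a range from 0.00113. IRF2 was lost in the fit of only those 2 groups (limma, adjusted p = 0.0652, the highest of a range from 0.000337) and IRF8 with the replicate number as a block over 4 conditions (limma, adjusted p = 0.0602, of a range from 7.59e-07).

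ACS differed from MSC-CM in IRF8 alone, by 1.24 on the log2 scale (limma, adjusted p = 0.00635), which was 1 of 8 members against 1.92% of all genes, and 1 of 8 against 1.23% with a 2-fold change. Without the 2 libraries far out on the first component, 3 members passed, IRF2, IRF7 and IRF8, while calls over all genes rose from 223 to 1647 of 11628. Between PRP lysate and ACS, 0 of 8 members passed by limma where 0.103% of all genes did, and edgeR and DESeq2 passed 0. An unadjusted p under 0.05 was found for 0 members and 5.19% of all genes. The 95% intervals of that difference ran from -0.80 to 0.06 for IRF7, from -0.57 to 0.29 for IRF8 and from -0.48 to 0.03 for IRF2. Against untreated cells, MSC-CM had 0 of 8 members past the threshold by limma (1.92% of all genes) and 3 at an unadjusted p under 0.05 (15.7%). There edgeR passed 0 members and DESeq2 2, with 597 of 16932 genes. ACS against untreated had 0 of 8 (0.473% of all genes) and 3 at an unadjusted p under 0.05 (7.6%). There edgeR passed 0 members and DESeq2 1, with 199 of 16932 genes. Without those 2 libraries the counts past the adjusted threshold were 3 (IRF2, IRF5 and IRF8) and 1 (IRF7). Calls over all genes rose from 223 to 1913 and from 55 to 378 of 11628. Members at an unadjusted p under 0.05 were then 2 for PRP lysate against ACS (956 genes) and 5 for MSC-CM against untreated (3563 genes).

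**Figure D4:**
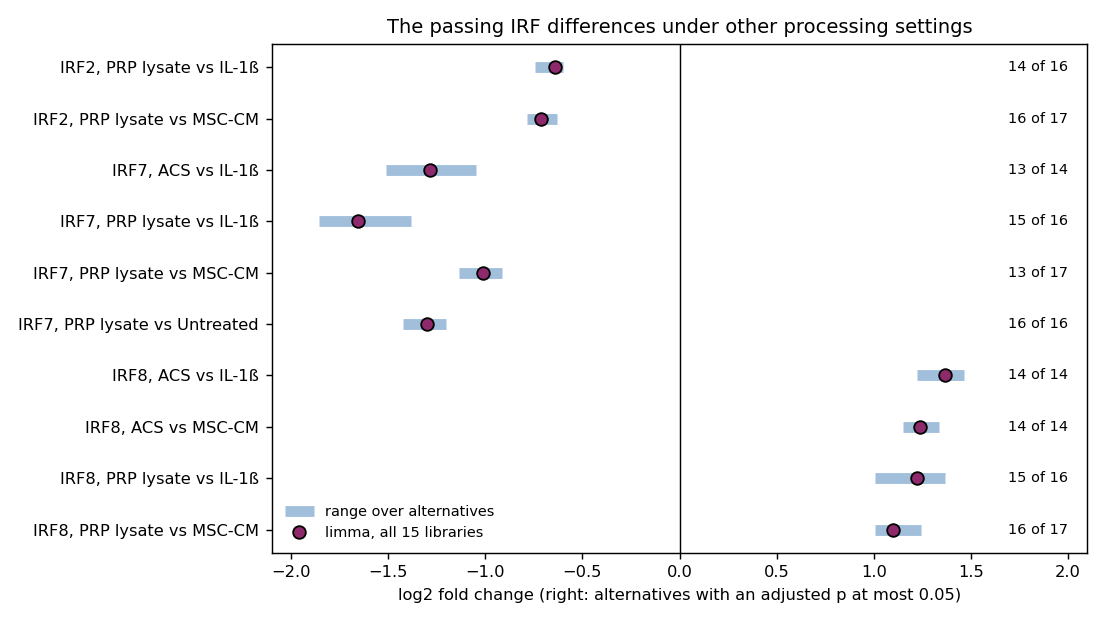
The 10 passing differences of IRF2, IRF7 and IRF8 on the log2 scale, with the limma value over all libraries as a point and the range over the alternative settings as a bar. The numbers at the right give how many alternatives also passed. No bar reaches zero, and IRF7 in PRP lysate against MSC-CM has the lowest share of passing alternatives, 13 of 17.

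The genes with the most similar levels were sought for the 3 members that passed against IL-1ß, by Pearson r of log2(CPM + 1) over the 15 libraries. The libraries share conditions and depth, so r is a description only. For IRF7 the closest were ENSECAG00000000968, PLAC8B and BCL2A1, a survival gene of the BCL2 family, with r of 0.972, 0.966 and 0.956. For IRF8 they were TIMP3, an inhibitor of metalloproteinases, TAGLN3 and CD83, a marker of mature dendritic cells, with r of 0.957, 0.954 and 0.952. For IRF2 they were SMPDL3A, ENSECAG00000035495 and ERP44 with r of 0.951, 0.945 and 0.945. Leaving out IL-1ß replicate 3 gave r of 0.939 to 0.960 for the genes of IRF7, 0.943 to 0.955 for those of IRF8 and 0.946 to 0.956 for those of IRF2. The order depended on that library, since without it the genes named for IRF7 ranked 1, 3 and 7, those for IRF8 ranked 2, 5 and 6, and those for IRF2 ranked 3, 6 and 5.

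Lists of genes that act with the family were described in the same comparisons, where 4.94% of all genes passed with PRP lysate and 3.45% with ACS. Of 29 sensors, adaptors and kinases that activate IRF3, IRF5 and IRF7, 2 rose and 3 fell with PRP lysate and 1 fell with ACS relative to IL-1ß. These 5 and 1 became 0 in fits of only the 2 groups. The 5 became 3 without IL-1ß replicate 2. Leaving out IL-1ß replicate 1 turned the 1 into 4, where 1179 of 11628 genes passed. That 1 became 2 when IL-1ß replicate 3 was left out, and 0 when any 1 of the ACS libraries was. TASL, the lysosomal adaptor that recruits IRF5, was at 17.3, 12.4 and 6.98 CPM with IL-1ß alone and at 1.56, 1.70 and 2.11 CPM with PRP lysate, a log2 difference of -2.17 (limma, adjusted p = 0.00229). TLR7, a receptor for single-stranded RNA, fell by 1.49 on the log2 scale with PRP lysate and by 1.08 with ACS (limma, adjusted p = 0.00237 and 0.0254), from 2.01 to 3.31 CPM in the IL-1ß libraries to 0.134 to 0.502 CPM with PRP lysate. TBKBP1, an adaptor of the kinase TBK1, rose by 1.04 with PRP lysate (limma, adjusted p = 0.0238) at 3.34 to 6.26 CPM. The kinases TBK1 and IKBKE themselves had log2 differences of -0.02 and 0.25 with PRP lysate (limma, adjusted p = 0.977 and 0.375).

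Of 17 interferon ligand and receptor genes, 1 rose and 1 fell with PRP lysate and 2 rose with ACS. The PRP lysate count became 1 in the fit of only the 2 groups, and without IL-1ß replicate 1 or 2 or PRP lysate replicate 2 or 3. The ACS count became 0 in the fit of only the 2 groups and without ACS replicate 2 or 3, and 1 without ACS replicate 1 or IL-1ß replicate 2 or 3. IFNG, a product of T and NK cells, was at 10.4, 9.63 and 7.71 CPM with IL-1ß alone, at 30.1, 36.1 and 43.0 CPM with PRP lysate and at 22.0, 16.7 and 22.3 CPM with ACS. It rose by 1.87 and 1.06 on the log2 scale (limma, adjusted p = 0.000539 and 0.0291). IFNGR2, a chain of its receptor, fell by 0.56 with PRP lysate (limma, adjusted p = 0.0331). STAT2, a partner of IRF9, had log2 differences of -0.20 with PRP lysate and 0.21 with ACS, neither of which passed. Of 17 partners and regulators of the family, only JUN passed with PRP lysate, by 0.67 (limma, adjusted p = 0.0217), and with ACS limma passed none of them. JUN was thus 1 of 17, near the share of all genes. The count was 0 with edgeR, RLE size factors, only the 2 groups, and without IL-1ß replicate 1 or PRP lysate replicate 2 or 3. It was 4 without PRP lysate replicate 1, where 799 of 11628 genes passed. SPI1, which encodes PU.1, differed by -0.53 with PRP lysate (limma, adjusted p = 0.0974), and BATF3, the partner of IRF8 in dendritic cells, by -0.31 (limma, adjusted p = 0.563).

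Of 31 target genes of ISGF3, 7 fell and none rose with PRP lysate relative to IL-1ß. Those that fell were CMPK2, HERC5, IFIT3, MX1, OAS1, OAS2 and OAS3. The list median was -0.38 where that of all genes was 0.11, and 24 of 31 values were negative. OAS1, a sensor of double-stranded RNA, was at 59.2, 55.5 and 61.4 CPM with IL-1ß alone and at 15.7, 21.6 and 29.7 CPM with PRP lysate, a log2 difference of -1.40 (limma, adjusted p = 0.00138). IFIT3 fell by 1.46 and MX1, an antiviral GTPase, by 1.13 (limma, adjusted p = 0.0283 and 0.0164). With ACS only OAS1 fell, by 0.96 (limma, adjusted p = 0.0234), and the list median was -0.23 against 0.13. ISG15 was at 89.2 CPM in IL-1ß replicate 3 against 30.4 and 31.5 CPM in the other two IL-1ß libraries, and did not pass with PRP lysate (-0.51; limma, adjusted p = 0.573). Without the 2 outlying libraries 8 genes of the list passed with PRP lysate and 4 with ACS, where 1079 and 693 of 11628 genes did. Without IL-1ß replicate 1 or 2 the PRP lysate count was 3. The ACS count was 0 without IL-1ß replicate 2 or 3 or any 1 of the ACS libraries, and 2 without IL-1ß replicate 1. In fits of only the 2 groups both counts were 0.

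**Figure D5:**
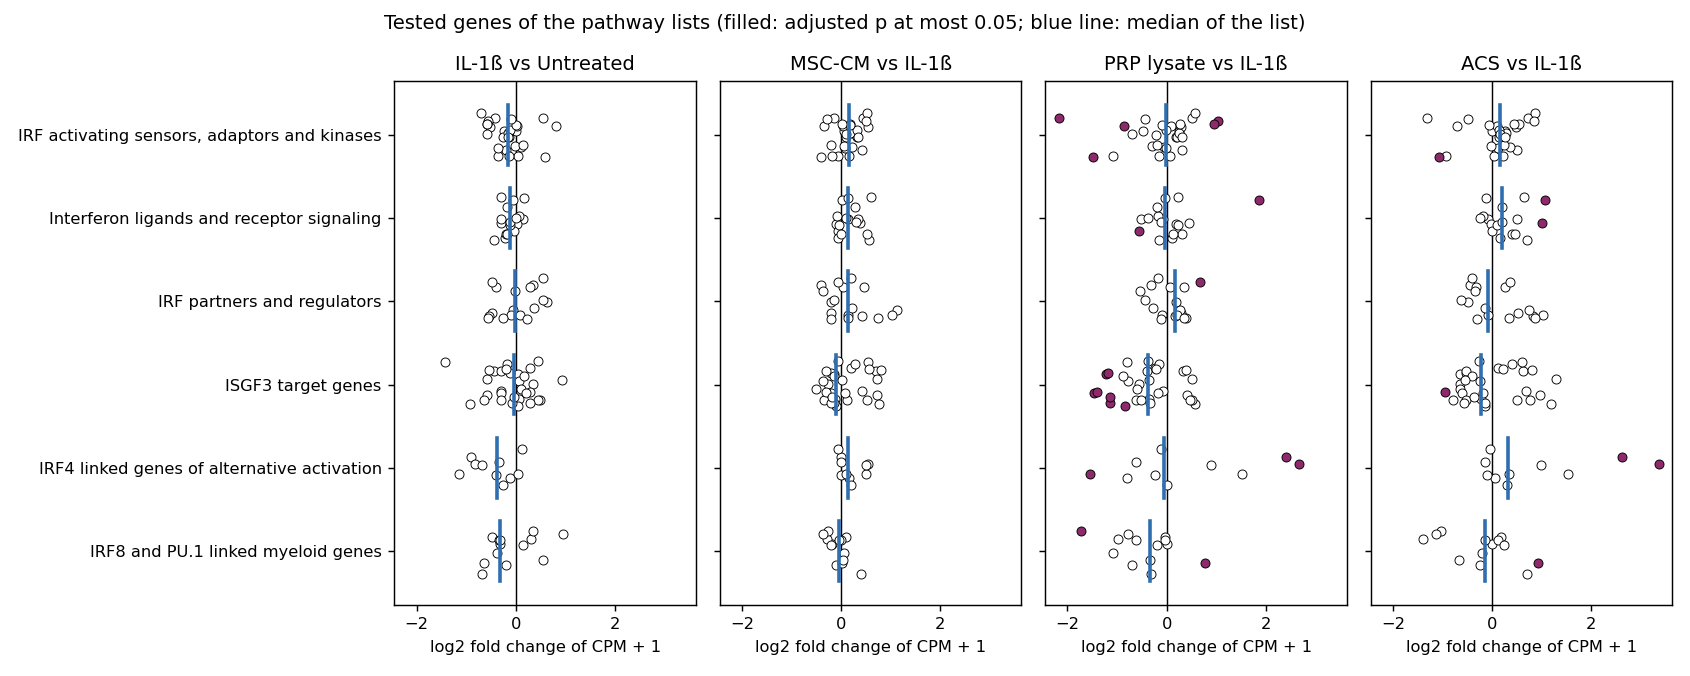
Log2 fold changes of the tested genes of 6 lists in 4 comparisons on the log2(CPM + 1) scale, 1 point a gene, filled where the gene passed, with the list median as a blue line. The 7 passing ISGF3 targets lie left of zero in PRP lysate against IL-1ß, where the list median is -0.38, and CCL22 and CCL17 lie farthest right in the IRF4 row for PRP lysate and ACS.

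Among single genes inducible by interferon-gamma, ICAM1, an adhesion molecule, rose by 0.79 with PRP lysate and 1.01 with ACS (limma, adjusted p = 0.00418 and 0.00222). CXCL11, a chemokine of the CXCR3 family, fell by 1.90 with PRP lysate (limma, adjusted p = 0.0129), from 24.8 to 29.7 CPM with IL-1ß to 2.42 to 13.3 CPM. CIITA, the switch of MHC class II genes, differed by 0.34 and 0.52 and did not pass. In IL-1ß against untreated, CXCL10 passed, whereas no gene of the 6 lists plotted did. It was at 175, 165 and 98.8 CPM in untreated cells and at 67.4, 48.2 and 32.7 CPM with IL-1ß, a log2 difference of -1.56 (limma, adjusted p = 0.0495), and 5 of 16 alternatives passed it. MSC-CM against IL-1ß had no passing gene in any of these lists.

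Of 10 genes tied to IRF4 and alternative activation, 2 rose and 1 fell with PRP lysate and 2 rose with ACS. DESeq2 passed 5 with PRP lysate (1092 of 16932 genes), and fits of only the 2 groups passed 2 with PRP lysate and 1 with ACS. CCL22, which attracts regulatory T cells, was at 83.2, 114 and 55.5 CPM with IL-1ß alone, at 558, 551 and 460.5 CPM with PRP lysate and at 836, 781 and 901 CPM with ACS. It rose by 2.67 and 3.36 on the log2 scale (limma, adjusted p = 0.000183 and 7.72e-05), and CCL17 by 2.41 and 2.62 (limma, adjusted p = 0.00785 and 0.00857). KDM6B, a histone demethylase placed upstream of IRF4, differed by 1.53 in both comparisons without passing (limma, adjusted p = 0.0643 and 0.0756). TGM2, a transglutaminase used as a mark of alternative activation, fell by 1.55 with PRP lysate (limma, adjusted p = 0.000309). In a list of 13 myeloid genes linked to IRF8 and PU.1, LYZ, which encodes lysozyme, fell by 1.72 with PRP lysate (limma, adjusted p = 0.0329). The median of that list was -0.34 with PRP lysate and -0.14 with ACS, with 11 and 7 of the 13 values negative.

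Markers of other cells were summed in the conditions in which the members were compared, and differences of these sums were not tested. Only the T cell sums with ACS and the granulocyte sums with PRP lysate and ACS did not overlap those with IL-1ß alone. The summed T cell markers were at 1259 to 1920 CPM with IL-1ß alone, 1015 to 2020 CPM with PRP lysate and 991 to 1225 CPM with ACS, and IRF4, IRF2 and IRF8 are also used by lymphocytes. The 11 macrophage markers summed to 2332 to 3141 CPM with IL-1ß, 1533 to 2411 CPM with PRP lysate and 2081 to 2353 CPM with ACS. These sums rest on CD68, at 1630 ± 138 CPM with IL-1ß and 1660.1 ± 298 CPM with PRP lysate (mean ± SD, n = 3 each), whereas 10 of the 11 markers had a negative log2 difference with PRP lysate and 5 of them passed, as did 3 with ACS. CD163, a scavenger receptor, was at 563 ± 173 CPM with IL-1ß, 11.4 ± 3.48 CPM with PRP lysate and 64.6 ± 25.0 CPM with ACS (limma, adjusted p = 9.04e-06 and 0.00149). MERTK, a receptor for the uptake of dying cells, was at 53.5 ± 10.8, 7.45 ± 1.89 and 26.8 ± 1.29 CPM (limma, adjusted p = 1.71e-05 and 0.0273). CSF1R, the receptor of M-CSF, was at 376 ± 130.4 and 182 ± 78.1 CPM with IL-1ß and PRP lysate, and ADGRE1 at 38.7 ± 26.3 and 8.44 ± 5.24 CPM, and neither passed (limma, adjusted p = 0.0914 and 0.0768). Of 7 listed B cell markers BLK averaged under 1 CPM, and their sum was 187 to 251, 135 to 210 and 152 to 261 CPM in the same conditions. The 7 listed markers of conventional dendritic cells, some of which need IRF8 to develop, summed to 183 to 214, 162 to 315 and 172 to 354 CPM, with CLEC9A, XCR1 and CD1C under 1 CPM on average. The 3 listed granulocyte markers rested on CSF3R, with sums of 309 to 391, 485 to 546 and 530 to 759 CPM. The 6 NK cell markers summed to 277 to 667, 376 to 1081 and 305 to 514 CPM. The sums of the platelet markers reached at most 41.4 CPM, those of the fibroblast markers 2.94 CPM, and TCF4, the 1 listed marker of plasmacytoid dendritic cells, 26.6 CPM. No listed marker was at 0 in all libraries, and the part of these cells in the IRF differences was not tested.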

How the data were processed

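Gene values were deposited as CPM, which the authors made in Partek Flow. Per the methods and the submitters' processing notes, cutadapt removed adapters, STAR 2.7.3 placed the reads on EquCab3.0, and HTSeq counted them by Ensembl gene. Whether that counting used strand is not given in the sources used here. Columns summed to 982495 to 991421 CPM. Of 125536 low values, 100% were whole reads within 0.05 read, and the recovered reads served as input of edgeR 4.0.16 (13675 genes) and DESeq2 1.42.0 (16932 genes).

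The main test was limma 3.58.1 in R 4.3.3, with an intensity trend, on log2(CPM + 1). It took the 11628 genes whose average over all libraries reached 1 CPM, fitted the 5 conditions of 3 libraries together without a block, and adjusted p by Benjamini-Hochberg within each of 10 comparisons. A fold change on this scale understates that of low genes. On reads simulated for ACS against IL-1ß it recovered 101 of 200 changed genes, 85 of 100 with a 4-fold change, with 5 false calls among 11604 genes. On the same reads edgeR recovered 104 with 5 false calls, and DESeq2 112 with 19. The simulated libraries were drawn independently around 1 common profile, with no outlier such as IL-1ß replicate 3, so these rates may not hold for the real libraries. Alternatives were RLE and TMM factors, a pseudocount of 0.1, no filter, edgeR, DESeq2, only the 2 groups compared, a replicate block, and leaving out single libraries or the 2 farthest out on the first principal component. Same-numbered MSC-CM and PRP lysate libraries correlated at 0.255 to 0.635 in their deviations from the condition means. MSC-CM replicate 2 with PRP lysate replicate 3, and replicate 3 with replicate 2, correlated at 0.388 and 0.470, so pairing was not shown. The same-numbered libraries were still also fitted as pairs, though nothing ties a number to a donor horse. ACS replicates were numbered in the order of their records. Named genes were all 8 members, the largest rise and fall among passing genes of each list, 14 genes by name and the 3 genes most alike to a passing member. Other genes named for a small count of a list were chosen after their values were seen. Some genes and 1 gene list are not reported here. The members and lists were chosen with earlier results of these data known. Gene lengths were not used, so levels were not compared between genes.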

Additional observations from a re-analysis of the deposited data

How the results depend on the processing

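The 10 passing differences of IRF2, IRF7 and IRF8 kept their direction in all 157 values under the alternatives and passed in 146 of them. Of the 70 that did not pass, with 1067 values under the alternatives, 15 passed at least once, and 81 of these values had another sign. Counts of passing members changed by more than 1.5 times as follows, and the cause was not tested. DESeq2 gave 1 for IL-1ß against untreated, 5 for PRP lysate against IL-1ß, 4 for ACS against IL-1ß, 5 for PRP lysate against MSC-CM, 2 for ACS against MSC-CM, 2 for MSC-CM against untreated and 1 for ACS against untreated. In the same order it passed 342, 1092, 949, 830, 522, 597 and 199 of 16932 genes. The main fit passed 45, 574, 401, 491, 223, 223 and 55 of 11628. A fit of only the 2 groups compared, which has fewer libraries to estimate the spread, gave 0 for PRP lysate and 1 for ACS against IL-1ß, 3 for ACS against MSC-CM and 1 for ACS against untreated. That 0 for PRP lysate stood beside 5 members at an unadjusted p under 0.05 and 56 passing genes of 11628. The other counts stood beside 49, 1536 and 335 passing genes, in the order given. TMM factors gave 4 for ACS against IL-1ß, RLE size factors 1 for MSC-CM against untreated, and no filter 2 for ACS against MSC-CM. There 405 and 203 of 11628 genes passed, and 204 of 16932 with no filter. Without the 2 libraries farthest out on the first component the counts were 3 for ACS against MSC-CM, 3 for MSC-CM against untreated and 1 for ACS against untreated. In the same order 1647, 1913 and 378 of 11628 genes passed, against 223, 223 and 55 with all libraries. Leaving out single libraries gave 2 to 4 for ACS against IL-1ß. The 4 (IRF1, IRF4, IRF7 and IRF8) passed without IL-1ß replicate 1, where 1179 of 11628 genes did.

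Untreated, IL-1ß, MSC-CM and PRP lysate libraries carry replicate numbers in their titles. The deviations of 18 same-numbered pairs from their group means correlated at -0.775 to 0.635, with 11 over 0.1. The 36 pairs of unlike number correlated at -0.751 to 0.773. All 3 same-numbered pairs of MSC-CM and PRP lysate were over 0.1, but so was replicate 2 of either with replicate 3 of the other. Pairing is thus not shown there either. A block on these 6 libraries gave 3 members, as without it, where 647 of 11628 genes passed. In each of the other 5 pairs of conditions at least 1 same-numbered pair was not over 0.1, so there the numbers were not taken to pair the libraries. With the number as a replicate block over these 4 conditions, 2 members passed for PRP lysate against IL-1ß, 2 for PRP lysate against MSC-CM and 1 for PRP lysate against untreated, against 3, 3 and 1 without the block, a reference fit added after seeing the data. The count was 0 in the other 3 comparisons, as without it. ACS titles carry no such numbers and end instead in Cheyto, PC and LIB, which the labels do not explain.

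ISGF3 targets passing with PRP lysate against IL-1ß numbered 7, and 0 to 9 under the alternatives. The member with the fewest reads had 894 at its mean level in the shallowest library, and each condition had 3 libraries.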

Other observations

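The ratio of IRF8 to IRF7, both in CPM, does not depend on the scaling of a library, and was chosen after the values of both genes had been seen, so that it is given as a description. It was 4.42, 4.45 and 7.62 in the untreated libraries, 3.24, 2.91 and 1.38 with IL-1ß alone and 3.35, 5.01 and 3.93 with MSC-CM. It was 20.5, 22.4 and 12.1 with PRP lysate and 12.7, 17.7 and 15.02 with ACS. The lowest PRP lysate or ACS library, at 12.1, was above the highest of the other 9, an untreated one at 7.62. IL-1ß replicate 3 had the lowest ratio of all, in the library that also held the most IRF3, IRF7 and IRF9.

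Against untreated cells, CXCL10 and CXCL11, both named here after their values were seen, were lower and passed with all 3 OTs, where 1.92%, 2.59% and 0.473% of all genes passed with MSC-CM, PRP lysate and ACS. CXCL10 was at 175, 165 and 98.8 CPM untreated, at 26.04, 29.5 and 30.7 CPM with MSC-CM, at 24.3, 54.1 and 39.5 CPM with PRP lysate and at 34.2, 31.4 and 30.5 CPM with ACS. Its log2 differences were -2.27, -1.90 and -2.11 (limma, adjusted p = 0.00602, 0.00439 and 0.0123), and they passed under 15 of 16, 15 of 16 and 9 of 14 alternatives. The ACS difference of both genes was lost without untreated replicate 1 or 2 or any 1 of the ACS libraries, and the PRP lysate difference of both in the fit of only the 2 groups. The MSC-CM difference of CXCL11 was lost without any 1 of the untreated or MSC-CM libraries, and that of both genes with the replicate block. It was also lower with IL-1ß alone, by the value given above. CXCL11 differed from untreated by -2.23, -3.27 and -2.40 (limma, adjusted p = 0.0202, 0.000667 and 0.0218), and passed under 8 of 16, 15 of 16 and 9 of 14 alternatives. With IL-1ß alone it differed by -1.38 without passing (limma, adjusted p = 0.172). All of these comparisons share the untreated libraries.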
